A study of Rattus norvegicus with 4 samples.

Results

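The glutathione transferases are enzymes that join the tripeptide glutathione to reactive and foreign molecules, and 10 rat genes of the family were examined here: Gsta1, Gsta4, Gstm1, Gstm2, Gstp1, Gstt1, Gstt2, Gsto1, Gstk1 and Mgst1. A probe was counted as a gene's own when its RefSeq accession paired with that current symbol, which gave 15 probes for the 10 genes, among 16581 genes with a symbol on the array. Of these 10 genes, 6 had 1 probe, 3 had 2 and 1 had 3. The genes were chosen from the family with the difference between the groups described here already known, so their values in that comparison are a description, and counts of how many lay higher support nothing by themselves.

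The RNA came from rat oligodendrocyte precursor cells (OPCs), the dividing glia that mature into myelin-forming oligodendrocytes, taken from cortex at postnatal day 2 and grown for 3 days with bFGF and PDGF. All 4 samples are also listed at 2 days in vitro. The miR-125a-3p group (2 samples) was transfected with 50 nM of a mimic of that microRNA, and the miR-neg group (2 samples) with 50 nM of a negative control RNA, both with the lipid reagent Lipofectamine RNAiMax. RNA was taken 48 h later and hybridised to single-colour Agilent arrays, 1 per sample. Nothing in the labels ties the 2 samples of a group to different litters or dishes, so a p-value here rests on a spread that may be technical. No untransfected cells were analysed here. All 11 tested OPC identity genes, Pdgfra, Cspg4, Olig2 and Sox10 among them, were well above background on all 4 arrays. So were all 11 tested markers each of mature oligodendrocytes, astrocytes and neurons, so these readings do not tell OPCs from a maturing or mixed culture. A gene was tested only when well above background on at least 2 arrays, so these counts partly follow from that filter. Of the same lists, Mal, Gjb6 and Slc17a6 were not tested and were well above background on 0 arrays.

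Cytosolic glutathione transferases fall into classes that include alpha, mu, pi, theta, omega and zeta. The kappa class sits in mitochondria and peroxisomes, and the membrane-bound microsomal enzymes form a separate family. Glutathione transferases detoxify electrophiles and products of lipid peroxidation, and several are known targets of the transcription factor Nrf2, which binds the antioxidant response element. In brain, the pi enzyme is a common stain for oligodendrocytes and the mu class is known from astrocytes. Precursors of oligodendrocytes are known to be sensitive to oxidative stress and to glutathione loss.

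The agent added and the start of the alpha-class gene with the largest difference are shown first, with the start of the pi-class gene, because those were the gene starts among the listed genes that held the searched element. The mature microRNA, from RefSeq (GRCr8, chr1:67350727-67350748, plus strand), is written with its seed, bases 2 to 8, in capitals. The labels name the mimic by its microRNA and do not give its own sequence.
rno-miR-125a-3p: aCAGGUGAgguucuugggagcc
The 300 bases from 250 before to 50 after the annotated start are given for Gsta1 (GRCr8, chr9:31216483-31216782, minus strand) and Gstp1 (GRCr8, chr1:210769656-210769955, minus strand), also from RefSeq. Capitals mark matches to the core of the antioxidant response element, TGACNNNGC, searched on both strands.
Gsta1: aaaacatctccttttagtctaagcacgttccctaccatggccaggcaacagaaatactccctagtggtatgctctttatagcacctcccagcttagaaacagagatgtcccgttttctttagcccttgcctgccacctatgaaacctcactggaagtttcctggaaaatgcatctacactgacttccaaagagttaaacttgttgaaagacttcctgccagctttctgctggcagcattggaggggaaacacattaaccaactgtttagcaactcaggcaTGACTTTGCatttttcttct
Gstp1: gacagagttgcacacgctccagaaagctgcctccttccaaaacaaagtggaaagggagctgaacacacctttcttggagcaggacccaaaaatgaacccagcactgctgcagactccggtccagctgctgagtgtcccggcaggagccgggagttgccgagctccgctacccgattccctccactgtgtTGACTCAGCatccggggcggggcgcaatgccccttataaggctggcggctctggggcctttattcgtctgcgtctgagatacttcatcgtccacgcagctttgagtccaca
In Gsta1 the match, TGACTTTGC, began at base 31 after the start, and in Gstp1 the match, TGACTCAGC, began at base -61 and overlapped the AP-1 motif TGACTCA. The promoter table held 8 of the 10 genes, and the windows of Gsta4, Gstm1, Gstm2, Gsto1, Gstk1 and Mgst1 had no match to these letters. Of all 33469 windows of this length in the table, 12.06% held the element and 4.631% held TGACTCA on either strand, which among the listed genes was in Gsto1 and Gstp1. A match of letters is not a measured binding site.

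Of the 10 listed genes, Gsta1 had the largest difference and alone passed the threshold in the main test. It encodes an alpha-class subunit, listed by RefSeq also under the older names Yc1 and GST A3-3, and this class conjugates electrophiles and reduces lipid hydroperoxides. Its first probe gave a processed signal (background-subtracted intensity) of 1979.9 and 2240.5 in the miR-125a-3p samples, against 347 and 445 in the miR-neg samples. Its second probe gave 1966 and 1970.0 after the mimic, against 348 and 412 in the controls. Both probes separated the groups by several times the spread within either group. Signals are given as read from each array, before scaling. On the scale tested, log2 signal relative to each array's 75th percentile, the first probe averaged 1.57 ± 0.10 after the mimic and -0.86 ± 0.35 in the controls (SD, n = 2 each). The log2 difference was 2.43 (SE 0.19, 95% interval 1.89 to 2.96), a 5.37-fold increase, with an adjusted p of 0.042 in limma's moderated test over 23155 features. With each probe as its own feature, the second probe differed by 2.38 (SE 0.15, adjusted p = 0.0365, limma), and 15 of the 23155 features had a larger increase than Gsta1. The call on Gsta1 ended under quantile normalization (adjusted p = 0.0522), without a filter on dim probes (0.23), with the replicate number as a block (0.0641) and without any 1 of the 4 arrays (0.175 to 0.235, limma), while its log2 difference stayed between 2.18 and 2.67 under all 14 alternatives.

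**Figure D1:**
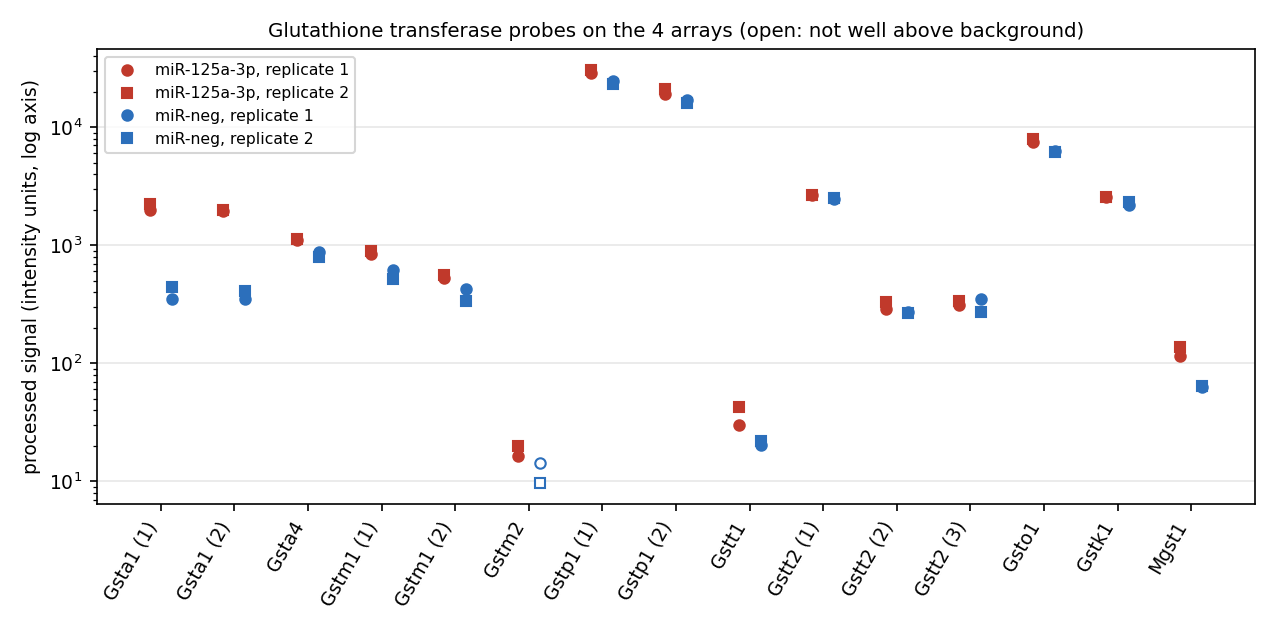
Processed signal (log axis) of each of the 15 probes on each array, with miR-125a-3p samples in red left of miR-neg samples in blue, and open symbols where a spot was not well above background. Gsta1 is separated by the widest gap on both of its probes, and Gstm2 is open in both miR-neg samples. Heights compare arrays within a probe, not one probe with another.

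Of the 10 genes, 1, Gsta1, passed the threshold of 0.05 as higher and 0 as lower, beside 0.38% and 0.307% of all features in limma (0.687% in either direction), and 8 of the 10 had an unadjusted p under 0.05, beside 19.5% of all features. All 15 probes and all 10 genes had a mean difference above 0, beside 52.5% of all features, the median over the 10 genes was 0.52, and that over all features was 0.01. Both miR-125a-3p samples lay above both miR-neg samples for all 10 genes at the probe tested, beside 28.7% of all features, and for 14 of the 15 probes. For Gstt2 this was nearly a tie on the tested scale, at 1.904 in the lower mimic sample and 1.901 in the higher control. Gstm2 was kept for testing only because its mimic arrays were bright, and the other 9 genes were well above background on all 4 arrays. In bulk RNA, more cells that hold a transcript and more of it per cell cannot be told apart.

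Gsta4, an alpha-class enzyme known for conjugating the lipid aldehyde 4-hydroxynonenal, gave signals of 1102 and 1129 after the mimic, against 870.4 and 798 in the controls. Those samples did not overlap, and the log2 difference of 0.42 (SE 0.07, 95% interval 0.22 to 0.63) did not pass in limma (adjusted p = 0.0996). In the gene order of GRCr8, Gsta4 is next to Gsta5 on chromosome 8, and Gsta1 has Gsta3 and Gsta6 as its nearest family genes on chromosome 9. Gsta6 gave 918 and 878 after the mimic, against 852 and 937 in the controls, so its groups overlapped, with a log2 difference of 0.01 (95% interval -0.33 to 0.35). Gsta5, at 14.6 and 14.5 in the miR-125a-3p samples and 11.8 and 9.17 in the miR-neg samples, was well above background on 0 arrays. Gsta3 had 16.8 and 3.39 after the mimic and 4.02 and 3.18 in the controls, with only the first of these well above background, and Gsta2 gave signals between 2.98 and 4.09, with 0 of 4 arrays well above background. The intervals of Gsta4 and Gsta6 overlap, and the difference between these genes was not tested. Cross-hybridisation between such close paralogues was not tested, since probe sequences were not used here.

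In the mu class, Gstm1 lay higher on both of its probes without passing the test. The tested probe gave 838 and 891 after the mimic, against 619.6 and 517 in the controls, and the other gave 524 and 563, against 425 and 339. The differences on the log2 scale were 0.61 (SE 0.09, 95% interval 0.37 to 0.86, adjusted p = 0.0791, limma) and 0.52 (SE 0.10). Gstm2, a mu-class enzyme whose gene is next to Gstm1 on chromosome 2, was close to background at 16.5 and 20.0 in the miR-125a-3p samples, both well above background, and at 14.4 and 9.70 in the miR-neg samples, neither of them so. Its log2 difference of 0.62 (SE 0.19, adjusted p = 0.206, limma) did not pass, ranged from 0.41 to 0.84 with 1 array left out (lowest without miR-neg replicate 2), and was 0.06 with normexp background correction. Gstm4, on the other side of Gstm1, had 524 and 574 after the mimic, against 616 and 485 in the controls, with overlapping groups and a difference of 0.01 (95% interval -0.29 to 0.31). Gstm5 (0.20, 95% interval -0.01 to 0.42) and Gstm7 (0.13, 95% interval -0.22 to 0.48) did not pass either.

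Gstp1, the pi-class enzyme, was measured by probes spotted 10 times each on every array. The averages over unflagged spots of the tested probe (8 spots on the first mimic array, 10 on the others) were 28823 and 30555.5 after the mimic, against 24415 and 23298 in the controls. The second probe averaged 19047 and 21104 in the miR-125a-3p samples and 16939.6 and 16007 in the miR-neg samples. Repeat spots of 1 array varied by a coefficient of variation of 1.68% to 2.81%, and on both probes the lowest spot of either mimic array lay above the highest spot of either control array. The repeat spots share their RNA, so they show the precision of a signal and not the spread between samples. The log2 differences were 0.32 (SE 0.08, 95% interval 0.10 to 0.54, adjusted p = 0.16, limma) and 0.29 (SE 0.09), a 1.25-fold higher level at the tested probe that did not pass. The adjacent gene Gstp3, chosen after its values were seen, gave 42.6 and 36.3 after the mimic, against 45.8 and 34.0 in the controls, a difference of 0.00 (SE 0.16) with overlapping groups.

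**Figure D2:**
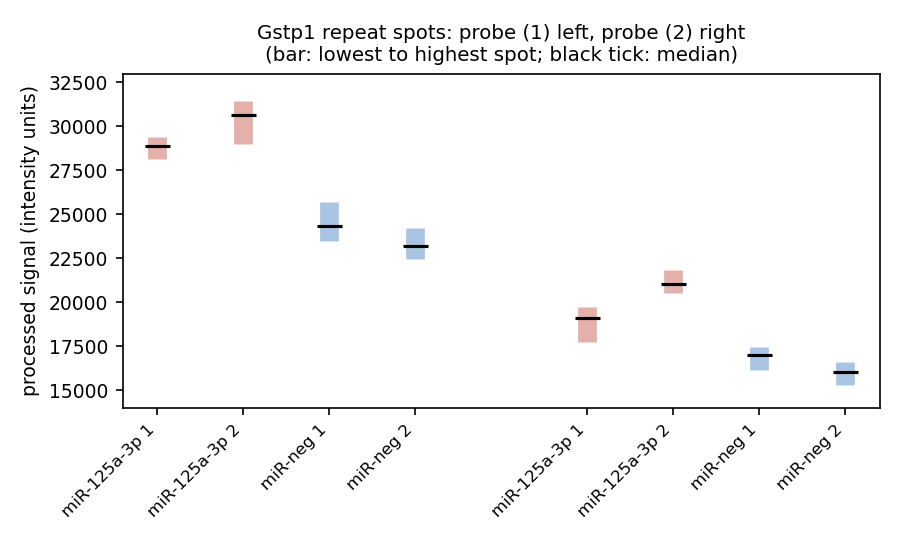
Processed signal of the repeat spots of the 2 Gstp1 probes on each array, with the tested probe at left, miR-125a-3p arrays in red left of miR-neg arrays in blue, bars from the lowest to the highest unflagged spot and a tick at the median. The bars of the groups do not meet on either probe, and the axis does not start at 0.

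In the theta class the tested differences did not pass. Gstt1, known for handling small halogenated hydrocarbons, was dim, with 29.9 and 42.8 after the mimic, against 20.4 and 22.1 in the controls. Its samples were separated but spread, and the difference of 0.76 (SE 0.21, 95% interval 0.19 to 1.32) did not pass (adjusted p = 0.181, limma), and with normexp it was 0.15. The tested Gstt2 probe gave 2641 and 2683 in the miR-125a-3p samples and 2454 and 2536 in the miR-neg samples, a difference of 0.10 (SE 0.10, 95% interval -0.17 to 0.37, adjusted p = 0.634, limma), with 0.0064 left without miR-neg replicate 1 and 0.19 without miR-neg replicate 2. Its other probes gave 289 and 329 against 269 and 268, a difference of 0.20, and 310.4 and 336 against 351 and 269.9, a difference of 0.07 with overlapping groups. Thus 2 of the 3 Gstt2 probes separated the groups, the tested probe only barely on the tested scale. Gstt4, which lies between Gstt2 and Gstt1 in the gene order of chromosome 20, had 10.1 and 26.2 after the mimic and 18.3 and 23.1 in the controls, with 1 array of each group well above background and no separation.

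Gsto1, an omega-class enzyme that reduces dehydroascorbate and removes glutathione from proteins, gave 7460.0 and 7928 after the mimic, against 6242 and 6132 in the controls. Its samples were separated, and the difference of 0.32 (SE 0.09, 95% interval 0.08 to 0.55) did not pass (adjusted p = 0.178, limma). The adjacent omega gene Gsto2 was higher by 1.08 on 1 probe, with 135 and 80.1 after the mimic, against 41.1 and 59.2 in the controls. Its SE of 0.37 reflected the spread of the samples within each group, and it did not pass (adjusted p = 0.235, limma), with 0.47 under normexp. Gstk1, the kappa-class enzyme of mitochondria and peroxisomes, had 2547 and 2549.7 in the miR-125a-3p samples and 2179 and 2316 in the miR-neg samples, a difference of 0.19 (SE 0.11, 95% interval -0.11 to 0.48, adjusted p = 0.424, limma). It was 0.07 without miR-neg replicate 1 and 0.30 without miR-neg replicate 2.

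Mgst1 is the microsomal glutathione transferase of the endoplasmic reticulum and outer mitochondrial membrane, and it also reduces lipid peroxides. It gave 115 and 138 in the miR-125a-3p samples, against 62.5 and 64.5 in the miR-neg samples. The separation was clear, at 1.99-fold, and the log2 difference of 1.00 (SE 0.13, 95% interval 0.65 to 1.34) was the second largest of the list, with an adjusted p of 0.0688 in limma that missed the threshold. With normexp the difference was 0.54 and passed (adjusted p = 0.008, limma). Neither of the other microsomal genes tested passed. Mgst2, spotted 10 times, averaged 70.2 and 70.1 after the mimic, against 82.1 and 82.4 in the controls, a difference of -0.22 (SE 0.09, 95% interval -0.47 to 0.02, adjusted p = 0.287, limma). Mgst3, also with 10 spots, had 2859 and 3077 after the mimic, against 3035 and 3119 in the controls, with overlapping groups and a difference of -0.05 (95% interval -0.32 to 0.22).

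**Figure D3:**
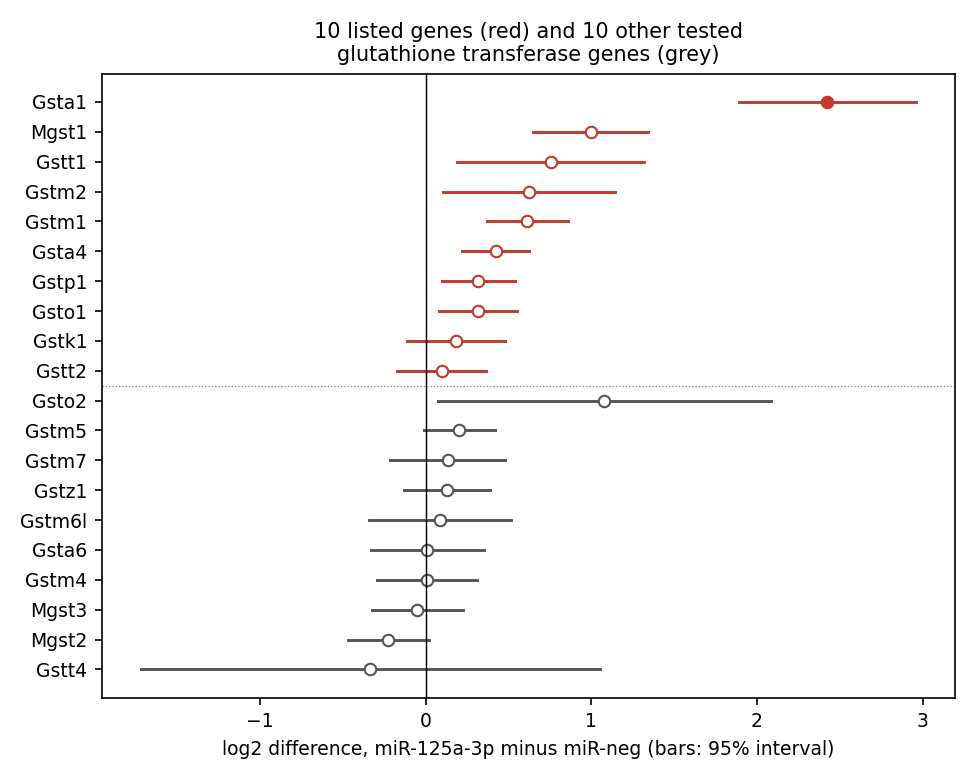
Log2 difference, miR-125a-3p minus miR-neg, of the 20 tested glutathione transferase genes with 95% intervals from limma, the 10 listed genes in red above and 10 others in grey below, and a filled symbol where the adjusted p was under 0.05. Only Gsta1 is filled, and the intervals of Gstk1, Gstt2 and 9 of the 10 others include 0.

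Of 21 other glutathione transferase and related genes, 18 had a probe and 10 were bright enough to test. In limma 0 of the 10 passed in either direction, beside 0.687% of all features. An unadjusted p under 0.05 was found for 1 (Gsto2), beside 19.5% of all features. Of the 10, 7 lay above 0, beside 52.5%. Both mimic samples lay above both controls for 3 and below both for 1, beside 28.7% and 24.1%. Their median difference was 0.05, beside 0.01 over all features. Gstz1, the zeta-class enzyme of tyrosine breakdown, was at 0.13 (95% interval -0.13 to 0.39). The 8 genes not tested had signals between 2.98 and 18.8 on their 10 probes, among them Hpgds and Ptges, which make prostaglandins, and Ltc4s, which makes a leukotriene. Since the 10 listed genes were chosen with their differences known, their higher median is no evidence that they differ from these others.

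The other genes of glutathione use were followed through 3 lists with 80 genes, of which 70 were tested. Of the 70, 21 had an unadjusted p under 0.05 in limma, beside 19.5% of all features, and 55 lay above 0, beside 52.5%. Some of them rested on probes kept only through the mimic arrays. These lists too were chosen with earlier results known, so the shares are a description. In limma 3 passed as higher and 0 as lower, beside 0.38% and 0.307% of all features, 67 did not pass, and the median was 0.13. For 2 of the 3, Cth and Cyp1a1, the probe was kept only through the mimic arrays, so those calls support nothing about the lists, and neither gene can be tested on probes bright on all 4 arrays. Among 18 tested genes of glutathione synthesis and recycling, the transsulfuration enzyme gene Cth passed and 17 did not (median 0.08). Of the 18, 5 had an unadjusted p under 0.05 in limma. Cth had signals of 18.5 and 19.5 after the mimic, against 6.72 and 5.10 in the controls, which were not well above background. With the control values raised to the dimmest value well above background, Cth was 1.94-fold higher, which is not a lower limit. Normexp gave a log2 difference of 0.22. The call on Cth (adjusted p = 0.0373, limma) ended with normexp (adjusted p = 0.152) and with a variance trend (adjusted p = 0.0625). The subunit Gclc of the enzyme that starts glutathione synthesis was at 0.22, the cystine importer Slc7a11 at 0.58, the Nrf2 gene Nfe2l2 at 0.43, Oplah, which recycles oxoproline, at 0.61 and the peptidase gene Anpep at 0.32. Those 5 did not pass (adjusted p from 0.0839 to 0.308, limma), and normexp gave 0.21 for Slc7a11 and 0.28 for Oplah.

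In the 24 tested genes of the glutathione and thioredoxin peroxidase systems, 0 passed in limma, 4 had an unadjusted p under 0.05, a share below the 19.5% of all features, and the median was 0.13. Srxn1, which repairs overoxidised peroxiredoxins, gave 752 and 743 after the mimic, against 302 and 332 in the controls, a difference of 1.24 (SE 0.12) that missed the threshold (adjusted p = 0.0529, limma). The thioredoxin reductase gene Txnrd1 was at 0.46, the peroxiredoxin genes Prdx6, Prdx5 and Prdx3 at 0.28, 0.20 and 0.17, and the glutaredoxin gene Glrx at 0.28. Among 28 tested genes of detoxification and conjugate export, 2 passed as higher and 26 did not pass (median 0.18). Of the 28, 12 had an unadjusted p under 0.05 in limma, beside 19.5% of all features. Among the 12, Akr7a3 (-0.40) and the exporter gene Abcc5 (-0.28) lay lower and the rest higher. Cyp1a1, Sult1a1 and Aldh3a1, also among the 12, were kept only through the mimic arrays. Cyp1a1, a cytochrome P450 induced through the aryl hydrocarbon receptor, had 22.4 and 22.9 after the mimic, against 4.15 and 3.28 in the controls. Those control signals were not well above background. The fitted log2 difference was 2.62 (adjusted p = 0.0333, limma), or 0.38 with normexp. With the control values raised to the dimmest value well above background, the increase was 2.31-fold, which is not a lower limit. Aldh1a1, which oxidises retinaldehyde and lipid aldehydes, gave 584 and 617 after the mimic, against 186 and 192 in the controls, a difference of 1.67 (SE 0.10, adjusted p = 0.0373, limma). The calls on Cth, Cyp1a1 and Aldh1a1 ended without a filter on dim probes, with the replicate block and without any 1 array. The sulfotransferase gene Sult1a1 (0.61), the mitochondrial aldehyde dehydrogenase gene Aldh2 (0.50), the conjugate exporter gene Abcc2 (0.56) and the reductase gene Ptgr1 (0.74) did not pass. Sult1a1 was not well above background in either miR-neg sample, and normexp gave 0.08 for Sult1a1, 0.21 for Abcc2 and 0.20 for Ptgr1.

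**Figure D4:**
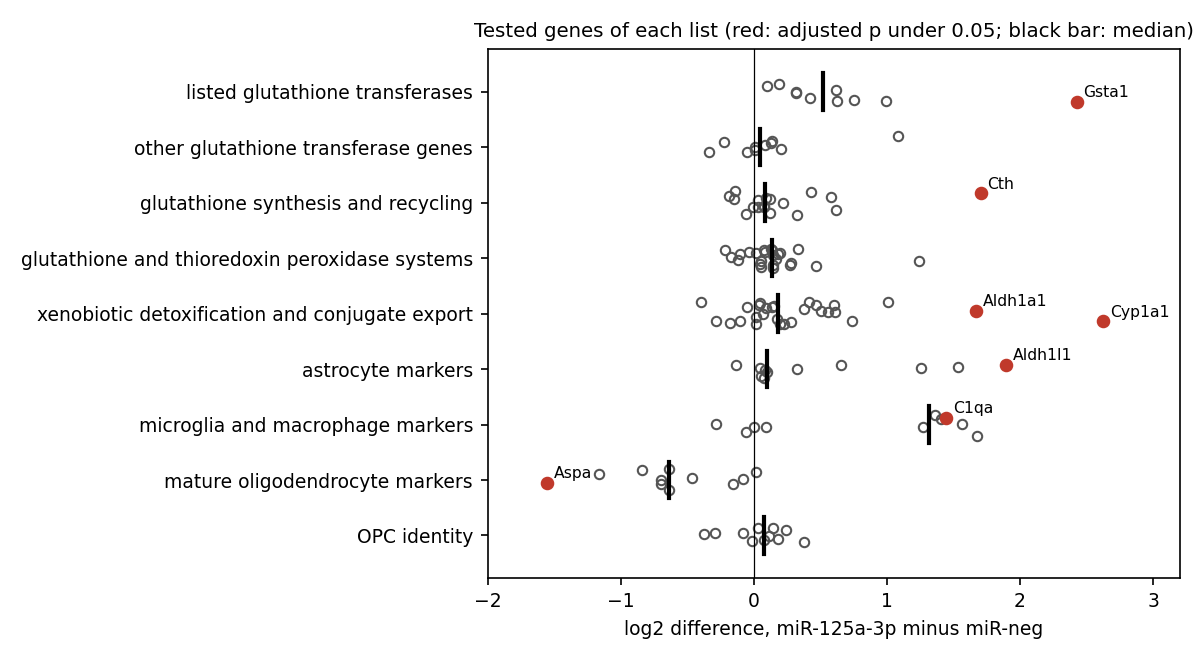
Log2 difference, miR-125a-3p minus miR-neg, of each tested gene in 9 lists, with a black bar at the list's median and filled red symbols, named, where limma's adjusted p was under 0.05. The 10 listed glutathione transferases have a median of 0.52 and include Gsta1, and the mature oligodendrocyte markers have a median of -0.64.

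Markers of other cells were read on the same arrays, and few of them passed. Of all features, 0.38% were called higher, 0.307% were called lower and 52.5% lay above 0. Of 11 tested astrocyte markers 10 lay above 0 and 1 (Fgfr3, -0.14) below, Aldh1l1 was called higher, and 5 had an unadjusted p under 0.05 in limma. Aldh1l1, Aqp4, Gja1, Gfap and Slc1a3 were at 1.89, 1.53, 1.25, 0.66 and 0.32. The summed scaled signal of the list was 208 and 211 after the mimic, against 185 and 197 in the controls, with a median log2 difference of 0.10. The microglial and macrophage markers, 7 of 10 of them above 0 with C1qa called, summed to 4.47 and 5.02 in the miR-125a-3p samples and 3.95 and 4.53 in the miR-neg samples, which overlap. Their median log2 difference was 1.31, with C1qa, C1qb, Aif1, Tyrobp and Fcer1g between 1.27 and 1.56 and Cx3cr1 (-0.06), P2ry12 (-0.00075), Itgam (0.09) and Cd68 (-0.28) near or below 0. C1qc (1.68, SE 0.46) was kept only through its mimic arrays, and Csf1r and Ptprc were not bright enough to test. The endothelial, pericyte and fibroblast markers, 7 of 8 above 0 with Tagln called, summed to 1.36 and 1.52 after the mimic, against 0.955 and 1.00 in the controls, with a median of 0.78. Of the 13 genes in this list, 5 (Pecam1, Cldn5, Rgs5, Dcn and Lum) were not bright enough to test. The endothelial genes Cdh5 and Kdr were at 0.05 and -0.18. The medians of the microglial list and of this list were larger than the 0.52 of the listed glutathione transferases. Each of these medians includes a gene kept only through its mimic arrays (C1qc, Pdgfrb and Gstm2 in turn). The sums are carried by each list's brightest probes, such as that of Aldoc (0.10) in the astrocyte list. An unadjusted p under 0.05 in limma was found for 6 of 10 microglial and 5 of 8 endothelial, pericyte and fibroblast markers. It was found for 8 of 11 mature oligodendrocyte genes, all 8 lower, and 3 of 11 OPC identity genes, beside 19.5% of all features. Of those 3 OPC genes, Pdgfra (-0.37) and Vcan (-0.29) lay lower and Neu4 (0.37) higher, none of them called. The median of the OPC list was 0.08, with 7 of 11 above 0. Neuron markers, 8 of 11 above 0 and 0 called in limma (2 at an unadjusted p under 0.05), summed to 13.8 and 13.0 after the mimic and 12.2 and 13.5 in the controls. Mature oligodendrocyte markers summed to 657 and 639 after the mimic, against 936 and 965 in the controls, with 10 of 11 below 0 and Aspa called lower, while OPC identity genes summed to 391 and 410.0, against 393 and 416. None of these lists' tested genes was at 0, and the part of these cells in the glutathione transferase values was not tested. All 4 arrays shared 1 slide and 1 scan. Position along 1 axis of the slide followed the group, and the effects of position and treatment cannot be told apart.

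The 5 genes most like Gsta1 over the 4 arrays, out of 11017 genes well above background on all of them, were Ccn2, Lcn2, Cxcl1, Mt2A and Ccl2. Likeness was the root mean square difference after centring each gene on its own mean, and it was between 0.14 (Ccn2) and 0.27 (Ccl2) on the log2 scale. Their differences after the mimic were 2.18, 2.15, 2.39, 1.95 and 1.94 in the same order. With 2 samples a group this likeness mostly restates the size of the difference, and it is given as a description.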

How the data were processed

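The members and gene lists were chosen with earlier results of these data known. The deposited scanner files hold processed intensities, made with Feature Extraction 10.7.3.1 (submitters' processing notes) and background-subtracted, per the file headers. The log2 values in the deposited table matched those intensities on the log2 scale, shifted by a constant for each array (tolerance 0.01).

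Control and outlier-flagged spots were left out, spots of a probe were averaged as log2 values, and each array's 75th percentile (679 to 745) was subtracted. Of 45598 probes, 27250 were kept, well above background on at least 2 arrays (26332 to 28138 per array, 0 spots saturated). RefSeq accessions named 21109 probes (GRCr8). The brightest probe stood for its gene, giving 23155 features. The comparison used limma 3.58.1 under R 4.3.3 (two-sided, lmFit and eBayes) and Benjamini-Hochberg adjusted p-values over every feature, called under 0.05. The procedure was tested on simulated data with independent errors drawn from the fitted variances, which does not check the calls on these arrays. An exact permutation test of 2 against 2 arrays cannot go below 0.333. The number of arrays limits the precision. Every member and probe was named, and from each further list the 6 genes of smallest p and any that passed, with the 5 genes most like Gsta1. The remaining family genes, Gstp3, Akr7a3, Abcc5 and Aldh3a1 were added after their values were seen. Normexp (offset 50) was run on median spot signals, a choice made after seeing the files. For Cth and Cyp1a1, dim control values were raised to the dimmest value well above background on the same array. A control value already larger was kept.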

Additional observations from a re-analysis of the deposited data

How the results depend on the processing

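Across 14 alternatives, the log2 differences of the 10 listed genes kept their sign in all 139 values, with 7 calls lost, all on Gsta1, and 11 gained. The 159 features past the threshold became 1601 with normexp, 83 with quantile normalization, 613 on probes well above background on all 4 arrays, 2048 with a variance trend and 0 without a filter on dim probes. The listed genes past it, 1 in the main test, were 5, 0, 3, 6 and 0 in the same order, the gains being Gstm1 and Mgst1 in each of the 3 settings with more calls, Gsta4 and Gstp1 with normexp and the trend, and Gsto1 with the trend. Of the 3 pathway genes past the threshold, normexp gave 8, the variance trend 10 (9 higher, 1 lower) and no filter 0. With the replicate number as a block, which is also 1 axis of the slide, the counts of features, listed genes and pathway genes were 0, 0 and 0, with 3968 features, 8 listed genes and 18 pathway genes at an unadjusted p under 0.05 in limma. Same-numbered arrays had deviations correlated at 0.05, and with 2 arrays a group the data do not decide whether the numbers pair the samples. Without any 1 array (miR-125a-3p replicate 1 or 2, or miR-neg replicate 1 or 2), each of these counts ranged from 0 to 0, with 5 to 8 listed genes at an unadjusted p under 0.05, and a lone array was assumed to vary like the other group. The count of other glutathione transferase genes was 0 in each of the 14 alternatives.

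Signs turned for small differences of unlisted family genes. Gstm4 was at -0.0254 with normexp and -0.00819 with quantile normalization, and Gsta6 at -0.000728 with quantile normalization. With 1 array left out, Gstm4 ranged from -0.10 to 0.11, Gsta6 from -0.12 to 0.15, Gstt4 from -1.01 to 0.34, Gstm6l from -0.0900 to 0.26, Gstm7 from -0.0039 to 0.27 and Mgst3 from -0.14 to 0.0383. Depth in an array is signal over background, and normexp brought Gstm2 to 0.06, Gstt1 to 0.15, Mgst1 to 0.54, Gsto2 to 0.47, Mgst2 to -0.13, Slc7a11 to 0.21, Oplah to 0.28, Sult1a1 to 0.08, Abcc2 to 0.21 and Ptgr1 to 0.20. For these changes the cause was not tested.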

Other observations

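Genes named here were chosen after their values were seen. Nqo1, a quinone reductase and a standard Nrf2 target, gave 267 and 257 after the mimic, against 253 and 67.1 in the controls, so that its log2 difference of 1.01 rested on 1 low miR-neg array. Probes of 1 gene disagreed for Ugt1a6, a glucuronosyltransferase. Its probe with 10 spots gave 1140 and 1086 in the miR-125a-3p samples and 861 and 855 in the miR-neg samples, while a second probe gave 14.5 and 54.7, against 92.8 and 13.2, with no order between the groups. A dim Gstt4 probe gave 5.12 and 26.0 after the mimic, against 4.81 and 3.79 in the controls, and was well above background on 1 array only. Gclm, the other subunit of the enzyme that Gclc belongs to, gave 4.77 and 5.85 after the mimic and 4.72 and 4.32 in the controls, with 0 of 4 arrays well above background.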
